A study of Mus musculus with 9 samples.

Results

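The glycerophosphodiesterase family was examined in the right ventricle of male mice as 6 genes, Gdpd1, Gdpd2, Gdpd3, Gdpd4, Gdpd5 and Gde1, of 22061 genes measured. The members were taken by gene symbol, with 7 probe sets in all, and a gene with several probe sets was read from the one brightest on average. The family was chosen by the measured Gdpd3 signal in these data, which was already known to differ between arrays labelled Lrat-/- and wild type. The Gdpd3 values of those comparisons are therefore given as a description, without a test.

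Glycerophosphodiesterases cut a phosphodiester bond that joins glycerol phosphate to a head group, and so release an alcohol such as choline, ethanolamine or inositol. Gdpd3 and Gdpd1 act as lysophospholipases D, which turn lysophospholipids into lysophosphatidic acid, a lipid that signals through its own receptors on the cell surface. Other members act on glycerophosphoinositol, on glycerophospho-N-acylethanolamines or on glycosylphosphatidylinositol anchors of surface proteins.

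Each of 3 groups held 3 arrays, numbered 1 to 3. The first was labelled Lrat-/- (LRAT -/- in the labels) on a vitamin A deficient diet, the second Lrat-/- on a vitamin A sufficient diet and the third wild type on the sufficient diet. Lrat encodes lecithin-retinol acyltransferase, which makes retinyl esters for storage. The sufficient pellets were the deficient ones with 250000 U/kg of retinol palmitate added, and all mice were killed after 50 days. The strain, the age, the extent of the Lrat deletion and whether arrays came from separate animals are not given in the sources used here, so each p-value reflects array-to-array spread alone, some of which may be technical. No wild-type group on the deficient diet was analysed, so diet was compared only within the Lrat-/- label.

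The signal is a log2 value from robust multi-array averaging (RMA), a method that corrects background, equalises the arrays and summarises the probes of a gene. The median signal of all genes was 7.16 to 7.21 on each array, and precision is set by how few arrays there are. The 8 cardiomyocyte markers, such as Myh6 and Tnnt2, averaged between 13.31 and 13.47 on every array, and all 8 were above the 95th percentile of the array's negative controls. The targeted gene went against its labels: the Lrat probe set read 7.58, 7.69 and 7.81 in deficient and 7.88, 7.64 and 8.09 in sufficient arrays labelled Lrat-/-, against 6.35, 6.24 and 6.43 in wild type. All 9 of these values lay below the 95th percentile of the negative controls. Even so, Lrat was among the called genes, higher than wild type by 1.35 in the deficient and 1.53 in the sufficient group (limma adjusted p = 0.00269 and 0.00153). The authors' deposited ratios to wild type were 2.61 and 3.04. Whether the probe set lies in the deleted stretch is not given in the sources used here, so each direction below rests on the labels. The arrays numbered 3 stood apart from the others on the first principal component, which held 28.4% of the variance, and values without them are given where they bear on a result.

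The regions upstream of 3 members are shown because they cover the gene that carried the large difference and the members with a match to a retinoid half-site. Receptors for retinoic acid bind pairs of such short sites. The sequences are the 250 bases before the gene start in RefSeq, build GRCm38.p6, with capitals on the half-site. Gdpd3 lies on the plus strand at chr7:126766164-126766413, Gde1 on the minus strand at chr7:118705739-118705988 and Gdpd4 on the plus strand at chr7:97919708-97919957.
Gdpd3: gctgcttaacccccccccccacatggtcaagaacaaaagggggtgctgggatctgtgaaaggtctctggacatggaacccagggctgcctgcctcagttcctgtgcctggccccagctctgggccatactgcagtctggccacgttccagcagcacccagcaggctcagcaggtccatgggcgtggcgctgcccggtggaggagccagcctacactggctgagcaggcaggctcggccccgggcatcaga
Gde1: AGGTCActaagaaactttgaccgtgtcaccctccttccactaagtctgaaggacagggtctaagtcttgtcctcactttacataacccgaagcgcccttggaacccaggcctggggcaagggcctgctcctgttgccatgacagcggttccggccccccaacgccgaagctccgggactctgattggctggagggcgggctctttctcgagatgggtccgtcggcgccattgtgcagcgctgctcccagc
Gdpd4: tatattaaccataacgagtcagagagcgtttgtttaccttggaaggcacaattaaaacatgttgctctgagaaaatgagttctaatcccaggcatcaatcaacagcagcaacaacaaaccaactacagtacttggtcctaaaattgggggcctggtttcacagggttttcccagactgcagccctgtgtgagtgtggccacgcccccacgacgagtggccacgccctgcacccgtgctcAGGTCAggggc

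The search covered 4 half-sites, namely AGGTCA, its variant GGGTCA, the further variant AGTTCA and lastly GGTTCA, on both strands and with overlapping matches allowed, in the 6 upstream regions that the table holds for 5 of the 6 members. Gde1 and Gdpd4 each held 1 AGGTCA, at 250 and 11 bases before the gene start. No match to any of the 4 was found in the windows of Gdpd1, Gdpd2 and Gdpd3, which says only that these letters are not in these windows. At least 1 of the 4 half-sites was found in 38.6% of all 32851 upstream regions of this length, and AGGTCA in 14% of them. Direct repeats of any of the 4 spaced by 1, 2 or 5 bases were found in 0 of the 5 members and in 0.164%, 0.174% and 0.0883% of all regions. The GC content of the Gdpd3 window was 65.2%, against a median of 52.4% over all regions.

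Gdpd3 signal in arrays labelled Lrat-/- lay at the level of the negative controls on both diets, while wild-type arrays gave a strong signal. The Gdpd3 log2 signal was 6.0, 5.66 and 5.98 in deficient arrays labelled Lrat-/-. On the sufficient diet it was 5.73, 5.98 and 5.82 in arrays labelled Lrat-/-, against 10.90, 10.99 and 10.30 in wild type. All 6 arrays labelled Lrat-/- lay below all 3 wild-type arrays, and the closest values were 6.0 in deficient array 1 and 10.30 in wild-type array 3. Gdpd3 averaged 5.88 ± 0.19 on the deficient and 5.84 ± 0.13 on the sufficient diet under the Lrat-/- label, against 10.73 ± 0.37 for wild type (SD, n = 3 each). The order of the levels was wild type, then the deficient and the sufficient group, and the last pair did not differ beyond their spread.

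The arrays carry 5222 negative control probe sets, which show what a probe set reads without its own target. Their mean was 5.67 to 5.71 on deficient arrays, 5.62 to 5.70 on sufficient arrays labelled Lrat-/- and 5.37 to 5.70 on wild-type arrays. Gdpd3 exceeded 50.6% to 59.3% of these controls on the deficient arrays and 51.8% to 59.7% on the sufficient arrays labelled Lrat-/-. In wild type it exceeded 98.7% to 99.3% of them. The 95th percentile of the controls, from 8.09 to 8.54 by array, is a strict line that lies above the median gene. Gdpd3 was above that line on 3 of 9 arrays, the wild-type ones.

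**Figure D1:**
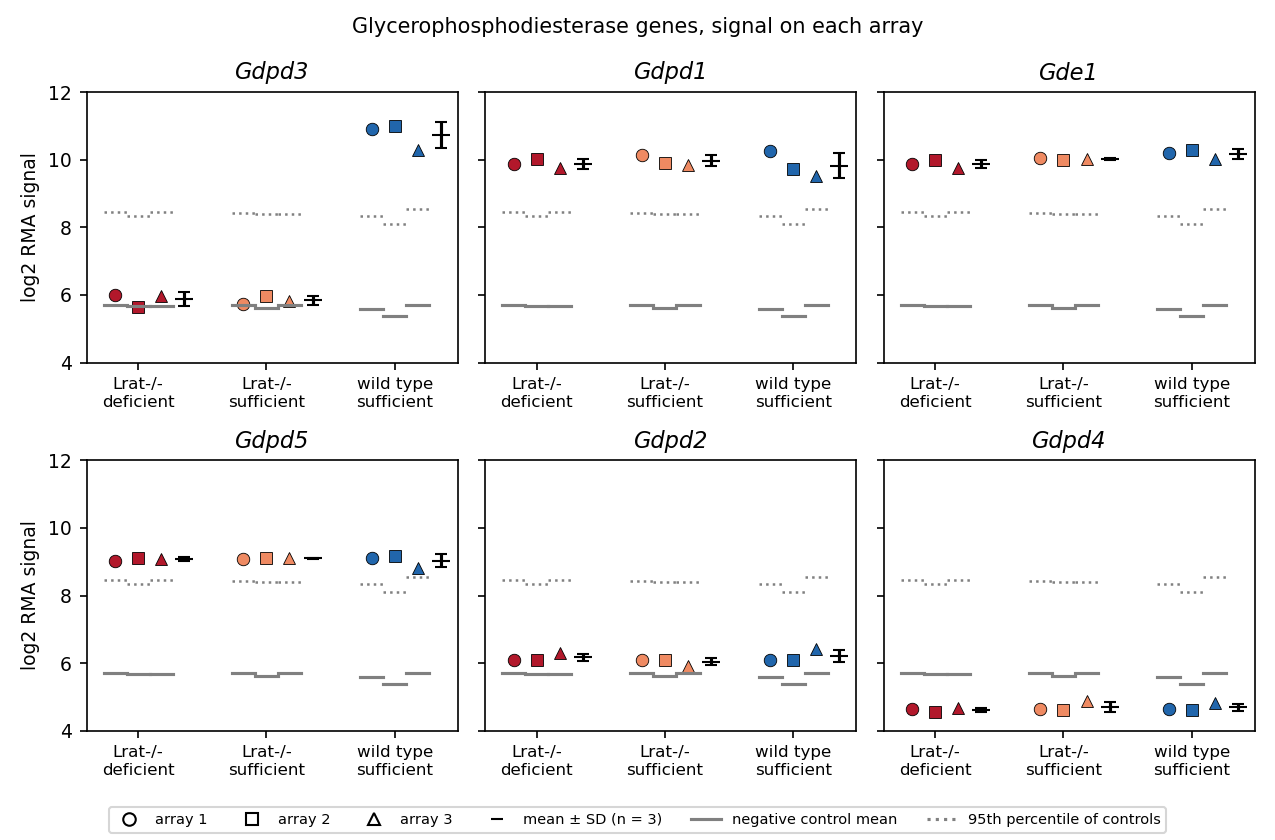
Log2 RMA signal of each family member (vertical axis) on each of the 3 arrays of each group (symbols by array number), with the mean and SD to the right of each group, the mean of the negative controls as grey bars and their 95th percentile as dotted bars. Gdpd3 sits at the control level on all 6 arrays labelled Lrat-/- and between 10.30 and 10.99 in wild type, while Gdpd1, Gde1 and Gdpd5 stay above the dotted bars on all 9 arrays.

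The measured Gdpd3 difference from wild type was -4.85 on the log2 scale in deficient arrays labelled Lrat-/- and -4.88 in sufficient ones. Both comparisons use the same 3 wild-type arrays. These differences correspond to 28.8-fold and 29.5-fold lower signal, but a signal at the level of the controls gives only a limit. Set against the 95th percentile of the controls, Gdpd3 was at least 4.98-fold lower in the deficient and at least 5.01-fold lower in the sufficient arrays labelled Lrat-/-. In the authors' deposited table the Gdpd3 ratio to wild type was 0.0399 for the deficient and 0.0367 for the sufficient group. These correspond to 25.06-fold and 27.25-fold lower signal, less than the plain differences of group means above. The authors' model had a scan date term. Within the arrays numbered 1 and 2 the difference was -5.11 in the deficient and -5.09 in the sufficient group. Within those numbered 3 it was -4.32 in the deficient and -4.48 in the sufficient group.

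Dietary vitamin A was compared within the Lrat-/- label, which is not the difference Gdpd3 was chosen for. The Gdpd3 signal differed by 0.04 between the deficient and the sufficient group (95% CI -0.36 to 0.43, limma adjusted p = 1), and the arrays of the groups overlapped. With both groups at the control level, a change between them may not be measurable on this array. Of all 22061 genes, 0.00% were called in this comparison at an adjusted p under 0.05, against 0.0363% between sufficient Lrat-/- and wild type and 0.0680% between deficient Lrat-/- and wild type. Of the 5 members other than Gdpd3, 0 were called by limma in any of the 3 comparisons, and 1, Gde1, had an unadjusted p under 0.05 in 1 of them. That comparison was deficient Lrat-/- against wild type, where 1344 of all 22061 genes had an unadjusted p under 0.05.

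Gdpd1, the other lysophospholipase D of the family, had overlapping signals in all 3 groups. Its log2 signal was 9.87, 10.03 and 9.74 in deficient arrays labelled Lrat-/-. It was 10.15, 9.90 and 9.84 in sufficient arrays labelled Lrat-/-, against 10.24, 9.71 and 9.52 in wild type. The groups overlapped in each comparison, and the wild-type arrays spread the most. Gdpd1 differed from wild type by 0.06 in the deficient group (95% CI -0.33 to 0.45, limma adjusted p = 0.996) and by 0.14 in the sufficient group (95% CI -0.25 to 0.53, limma adjusted p = 0.95). Between the diets it differed by -0.08 (95% CI -0.47 to 0.31, limma adjusted p = 1). These intervals leave out a change of the size measured for Gdpd3, and together they reach from -0.47 to 0.53. The difference between sufficient Lrat-/- and wild type rested on single wild-type arrays, since it was 0.35 without wild-type array 1 and -0.01 without wild-type array 3. It was 0.32 within the arrays numbered 3 and 0.05 within those numbered 1 and 2. The difference between deficient Lrat-/- and wild type was 0.27 without wild-type array 1 and -0.09 without wild-type array 3.

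Gde1, a membrane enzyme that acts on glycerophosphoinositol and on glycerophospho-N-acylethanolamines, had the lowest signal in deficient arrays labelled Lrat-/- and did not pass the test. Its log2 signal was 9.88, 9.98 and 9.74 in the deficient arrays. It was 10.04, 10 and 10.01 in sufficient arrays labelled Lrat-/-, against 10.20, 10.30 and 10.02 in wild type. All 3 deficient arrays lay below all 3 sufficient ones of the same label and below all 3 wild-type ones, while the sufficient Lrat-/- and wild-type arrays overlapped. Gde1 differed from wild type by -0.31 in the deficient group (95% CI -0.51 to -0.10, unadjusted p = 0.00796, limma adjusted p = 0.556). It differed by -0.15 between the diets (95% CI -0.36 to 0.05, limma adjusted p = 1) and by -0.15 between sufficient Lrat-/- and wild type (95% CI -0.36 to 0.05, limma adjusted p = 0.924). Arrays did not overlap for 8.15% of all genes between deficient Lrat-/- and wild type, 5.22% between the diets and 7.70% between sufficient Lrat-/- and wild type. Of the 5 members other than Gdpd3, the counts were 1, 1 and 0, and the member was Gde1 both times. Gdpd3 is left out of this count because it was chosen for its difference from wild type. Within the arrays numbered 3 the Gde1 difference was -0.28 between deficient Lrat-/- and wild type, -0.27 between the diets and -0.01 between sufficient Lrat-/- and wild type. Within those numbered 1 and 2 it was -0.32, -0.09 and -0.23 in the same comparisons.

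Gdpd5, which cleaves glycosylphosphatidylinositol anchors of surface proteins in neural cells, was even across the groups. Its log2 signal averaged 9.07 ± 0.05 in deficient and 9.10 ± 0.01 in sufficient arrays labelled Lrat-/-, against 9.03 ± 0.18 in wild type (SD, n = 3 each). The lowest value was 8.83 in wild-type array 3 and the highest 9.17 in wild-type array 2, so every other array lay inside the wild-type range. Its differences from wild type were 0.04 in the deficient and 0.07 in the sufficient group, and -0.02 between the diets (limma adjusted p = 0.994, 0.952 and 1). The 3 intervals together reached from -0.23 to 0.27. Gdpd5 differed from wild type by 0.27 in the deficient and 0.28 in the sufficient group within the arrays numbered 3, and by -0.07 and -0.04 within those numbered 1 and 2.

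Gdpd2 and Gdpd4 gave no signal above the 95th percentile of the negative controls on any of the 9 arrays. Gdpd2, known from osteoblasts, lay between 5.93 and 6.41 and exceeded 57.9% to 69.3% of the controls. Its value was the same to the last deposited digit on 5 of the 9 arrays, 2 deficient, 2 sufficient Lrat-/- and 1 wild type. A second Gdpd2 probe set lay between 5.85 and 6.41, with the highest value in sufficient array 3 labelled Lrat-/-, whereas the first was highest in wild-type array 3. Gdpd4 lay between 4.56 and 4.89, under the mean of the controls on every array. The differences of Gdpd2 ran from -0.16 to 0.12 over the 3 comparisons and those of Gdpd4 from -0.09 to 0.02 (lowest limma adjusted p = 0.943). At this signal a difference between groups may not be measurable for these genes.

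**Figure D2:**
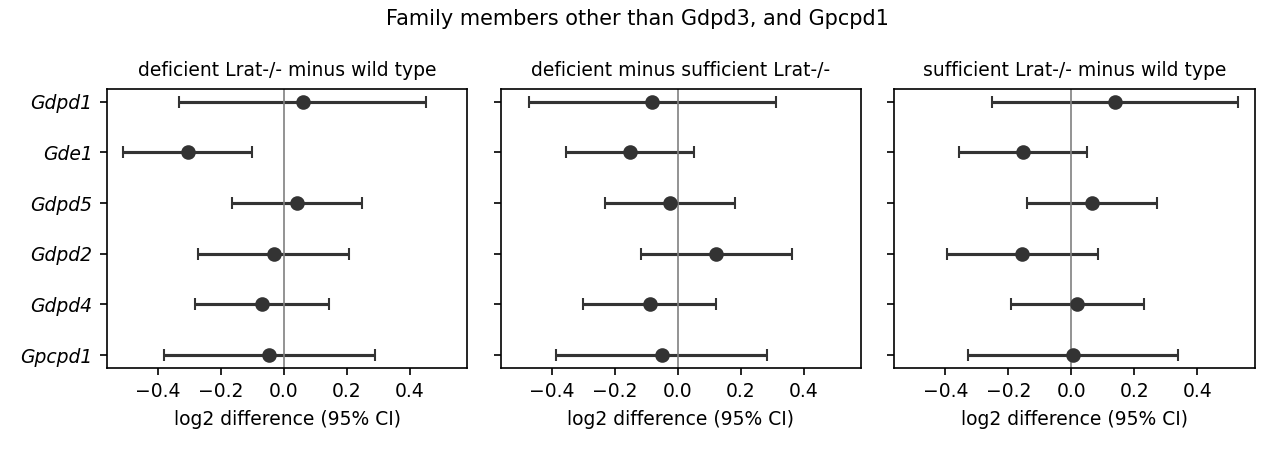
Differences in log2 signal (horizontal axis, with 95% confidence intervals from limma) of the 5 members other than Gdpd3 and of the related gene Gpcpd1, in the 3 comparisons. The Gde1 interval between deficient Lrat-/- and wild type, from -0.51 to -0.10, is the 1 that does not reach 0, and no gene shown had an adjusted p under 0.05.

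Gpcpd1, a related enzyme outside the Gdpd series that splits glycerophosphocholine, differed from wild type by -0.05 in the deficient and by 0.00 in the sufficient group (limma adjusted p = 0.997 and 0.999). Its log2 signal averaged 11.56 ± 0.09 in deficient and 11.61 ± 0.24 in sufficient arrays labelled Lrat-/-, against 11.61 ± 0.25 in wild type (SD, n = 3 each). It was above the 95th percentile of the controls on 9 of 9 arrays.

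Gdpd3, Gdpd4, Gdpd5 and Gde1 all lie on chromosome 7, Gdpd1 lies on chromosome 11 and Gdpd2 on the X chromosome. The nearest measured gene on each side of Gdpd3 differed little between the groups. RefSeq places Mapk3, which encodes a mitogen-activated protein kinase, before Gdpd3 and Ypel3 after it, and no other gene overlaps Gdpd3 there. Mapk3 read 10.20, 10.14 and 10.19 in deficient and 10.20, 10.14 and 10.11 in sufficient arrays labelled Lrat-/-, against 10.22, 10.36 and 10.10 in wild type. Ypel3 read 9.94, 9.86 and 10.05 in deficient and 9.72, 9.77 and 10.02 in sufficient arrays labelled Lrat-/-, against 9.76, 10.03 and 10.08 in wild type. The groups overlapped for both genes.

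Of the 20 measured genes nearest to Gdpd3, 10 on each side, 0 were called by limma in any comparison. Between deficient Lrat-/- and wild type their differences ran from -0.13 to 0.43, with 1 at an unadjusted p under 0.05. Between sufficient Lrat-/- and wild type they ran from -0.22 to 0.19, with 10 positive and 10 negative and 0 at an unadjusted p under 0.05. The 3 with the lowest p between sufficient Lrat-/- and wild type were the stress protein gene Nupr1 (-0.22), Tlcd3b (0.19) and the leukocyte actin regulator Coro1a (-0.13), with limma adjusted p of at least 0.922. The value of 0.43 belonged to Sult1a1, a sulfotransferase gene named after its values were seen (limma adjusted p = 0.496), which was 0.11 in the sufficient group. Between the diets the 20 neighbours ran from -0.17 to 0.32, with 1 at an unadjusted p under 0.05. That gene was again Sult1a1, whose 3 deficient arrays lay above the 3 sufficient ones (0.32, unadjusted p = 0.0268, limma adjusted p = 1). Arrays did not overlap for 1 of the 20 neighbours between the diets and for 1 between deficient Lrat-/- and wild type. The shares of all genes were 5.22% and 8.15%. At an unadjusted p under 0.05 there were 290 of all 22061 genes between the diets. There were 1344 between deficient Lrat-/- and wild type and 1261 between sufficient Lrat-/- and wild type.

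**Figure D3:**
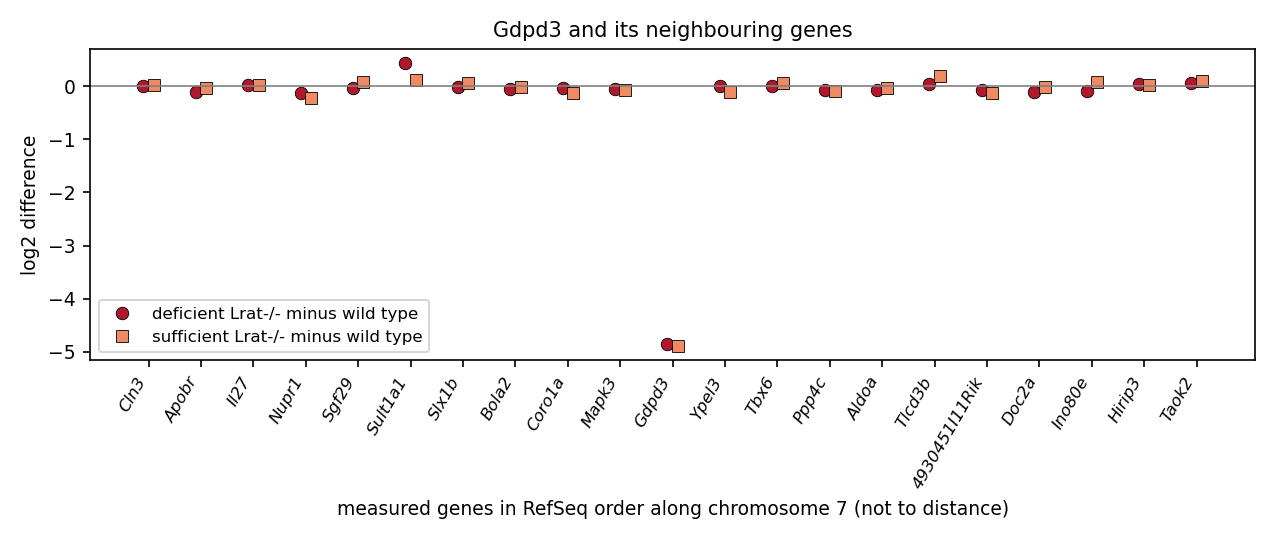
Difference in log2 signal from wild type (vertical axis) of Gdpd3 and the 10 measured genes on each side of it, in their order along chromosome 7, for deficient (circles) and sufficient (squares) arrays labelled Lrat-/-. Gdpd3 lies at -4.85 and -4.88 and the 20 neighbours between -0.22 and 0.43.

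Genes that act with the family were counted from a list of 52 genes, all of them measured. Its first group holds other lysophospholipases D and N-acylethanolamine enzymes, together with Gpcpd1, Pla1a and Liph (9 genes in all). The other groups cover receptors of lysophosphatidic acid (6), its removal (9), the supply of lysophospholipids and glycerophosphodiesters (11) and the use of choline and glycerol 3-phosphate (17). None of the 52 was called by limma in any comparison, where 0.0680%, 0.00% and 0.0363% of all genes were called between deficient Lrat-/- and wild type, between the diets and between sufficient Lrat-/- and wild type. At an unadjusted p under 0.05 there were 6, 0 and 6 of the 52, against 1344, 290 and 1261 of all 22061 genes. Among the 52, arrays did not overlap for 3 higher and 3 lower genes between deficient Lrat-/- and wild type. The counts were 1 and 2 between the diets and 2 and 3 between sufficient Lrat-/- and wild type. In the same order, arrays did not overlap for 8.15%, 5.22% and 7.70% of all genes. The median difference of the list was -0.01, -0.02 and 0.02, and that of all genes -0.01, -0.01 and 0.00.

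Of the 9 genes in the first group, which holds the lysophospholipases D and N-acylethanolamine enzymes, 3 were above and 6 below wild type in the deficient group. In the sufficient group 4 were above and 5 below. Those described next were all below. Napepld encodes a phospholipase D that releases N-acylethanolamines from membrane lipid. Napepld read 7.92, 8.11 and 8.06 in deficient and 7.79, 8.07 and 7.75 in sufficient arrays labelled Lrat-/-, against 8.45, 8.16 and 8.27 in wild type. Both Lrat-/- groups lay below wild type without overlap, by -0.26 in the deficient and -0.42 in the sufficient group (limma adjusted p = 0.796 and 0.517). Napepld was below the 95th percentile of the controls on all arrays labelled Lrat-/- and on wild-type array 3. Enpp2, or autotaxin, the secreted lysophospholipase D of blood plasma, differed from wild type by -0.18 in the deficient and -0.07 in the sufficient group (limma adjusted p = 0.954 and 0.965). Faah, which breaks down N-acylethanolamines and lay below the 95th percentile of the controls on all 9 arrays, differed by -0.10 in the deficient and -0.07 in the sufficient group (limma adjusted p = 0.978 and 0.962).

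Among the receptors, Lpar1 had the lowest p between the diets, at -0.17 (limma adjusted p = 1). Lpar1 read 8.32, 8.31 and 8.03 in deficient and 8.41, 8.35 and 8.41 in sufficient arrays labelled Lrat-/-, against 8.49, 8.43 and 8.37 in wild type. The deficient arrays lay below both other groups, most of all array 3, and the sufficient Lrat-/- and wild-type arrays overlapped. Differences of the 6 receptors from wild type ran from -0.21 to 0.10 in the deficient and from -0.04 to 0.16 in the sufficient group. No more than 2 of the 6 receptors were above the 95th percentile of the controls on any array, so these differences carry the same limit as those of Gdpd2. Of the enzymes that act on lysophosphatidic acid, the phosphatase gene Acp6 was 0.23 above wild type in the deficient and 0.27 above it in the sufficient group (limma adjusted p = 0.759 and 0.698). The acyltransferase gene Agpat1 differed by -0.17 between the diets (limma adjusted p = 1).

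In the supply of lysophospholipids, the secreted phospholipase A2 gene Pla2g5 had the largest positive difference of the list. Pla2g5 read 11.22, 10.91 and 11.05 in deficient and 10.88, 11.13 and 11.04 in sufficient arrays labelled Lrat-/-, against 10.45, 10.86 and 10.50 in wild type. All 6 arrays labelled Lrat-/- lay above the wild-type arrays, with wild-type array 2 close below them, and the differences were 0.46 in the deficient and 0.41 in the sufficient group (limma adjusted p = 0.489 and 0.656). The phospholipase gene Abhd3 differed by -0.22 between the diets (limma adjusted p = 1). Gpd1, the cytosolic glycerol 3-phosphate dehydrogenase, was 0.37 and 0.38 above wild type in the deficient and sufficient groups (limma adjusted p = 0.749 and 0.771).

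**Figure D4:**
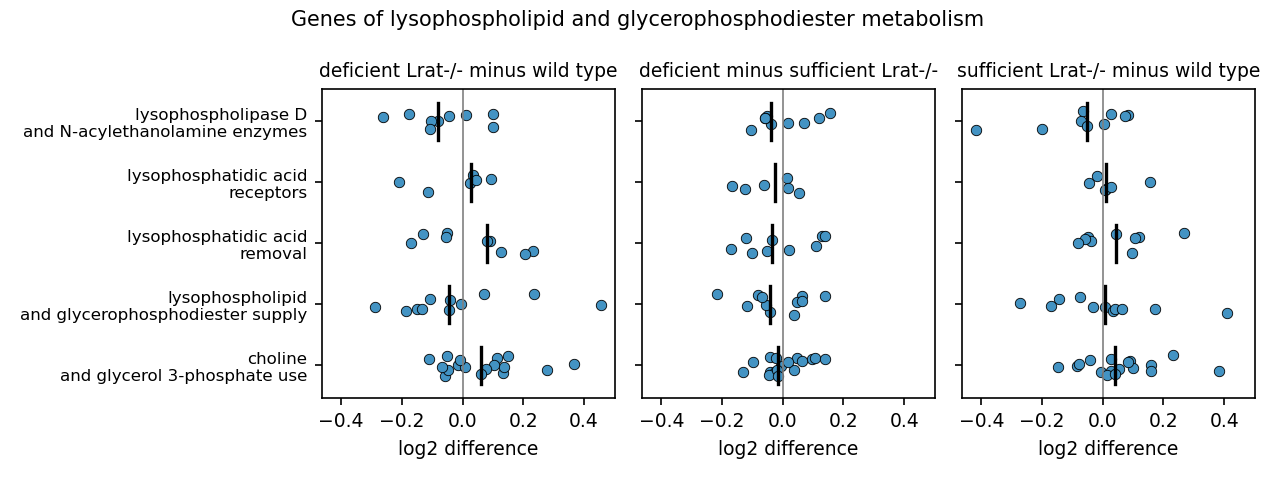
Difference in log2 signal (horizontal axis) of the 52 genes of lysophospholipid and glycerophosphodiester metabolism in the 3 comparisons, 1 point per gene, by functional group, with the median of each group as a black bar. The points lie between -0.42 and 0.46, and none had an adjusted p under 0.05.

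The pattern of Gdpd3 over the 9 arrays was compared with that of the 154 other genes whose signal had an SD of at least 0.5 over the arrays. The highest Pearson r was 0.98, for an olfactory receptor gene. That gene lay below the 95th percentile of the negative controls on every array. It averaged 5.664 in wild type, near the mean of the controls. In the deficient and sufficient Lrat-/- groups it averaged 3.475 and 3.514, under that mean. Next came Plekha7, an adherens junction gene, with r = 0.975, the fatty acid elongase gene Elovl7 with 0.971, the histidine ammonia-lyase gene Hal with 0.963 and the F-box gene Fbxo44 with 0.936. Fbxo44 read 6.68, 6.86 and 7.08 in deficient and 6.79, 7.01 and 7.21 in sufficient arrays labelled Lrat-/-, against 8.04, 8.42 and 7.69 in wild type. Its lowest wild-type array was number 3, as it was for Gdpd3, while Elovl7 and Hal were lowest in wild-type array 1, at 6.92 and 7.86.

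At the other end, the lowest r over the 9 arrays was -0.982 for Lrat itself, followed by Lgr6, a receptor for R-spondins, at -0.977 and the protein kinase A inhibitor gene Pkig at -0.968. Of the 154 genes, 7 had r over 0.9 and 4 had r under -0.9. These correlations describe how 9 arrays that share 1 normalization fall into 3 high and 6 low values, and they carry no test.

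**Figure D5:**
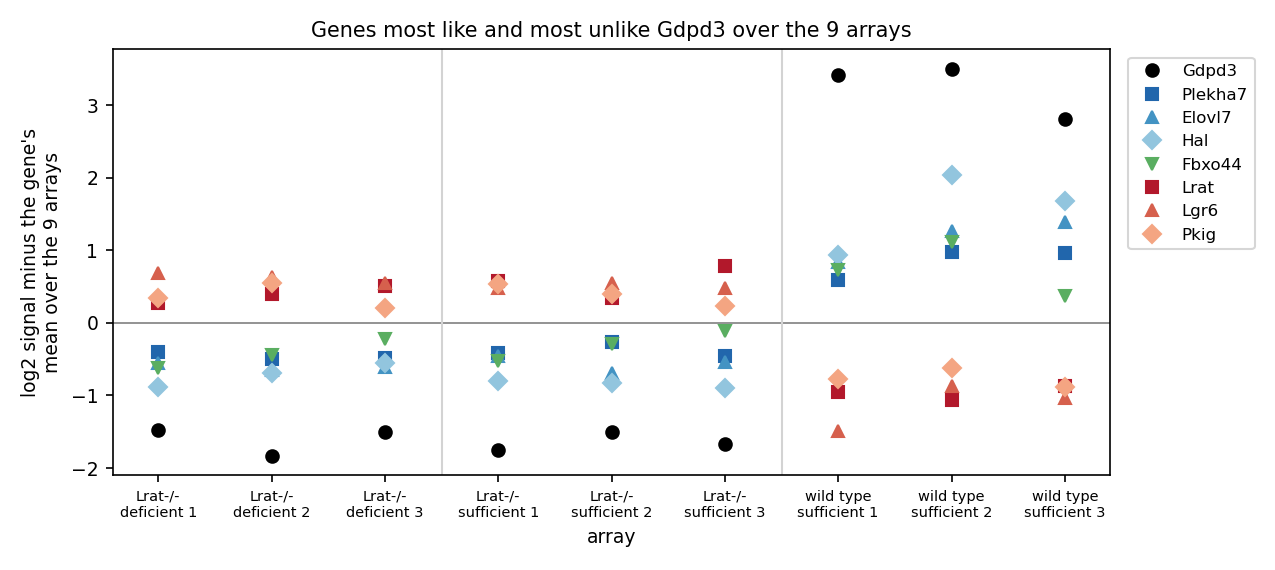
Log2 signal minus the gene's own mean over the 9 arrays (vertical axis) on each array (horizontal axis, by group) for Gdpd3, the named genes with the highest r to it (Plekha7, Elovl7, Hal, Fbxo44) and those with the lowest (Lrat, Lgr6, Pkig). The first 5 genes are higher and the last 3 lower on each wild-type array than on any array labelled Lrat-/-.

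Marker genes of other cell types were set beside the Gdpd3 difference. In this tissue fewer cells of a type and less RNA per cell cannot be told apart. All 5 mesothelial markers were lower in both Lrat-/- groups than in wild type, by -1.36 to -0.15 in the deficient and -0.71 to -0.09 in the sufficient group, and 0 were called (lowest limma adjusted p = 0.338 and 0.68). Their mean log2 signal ran from 6.84 to 7.29 in deficient and from 7.34 to 7.37 in sufficient arrays labelled Lrat-/-, against 7.47 to 8.20 in wild type. Of these 5 markers, 1 to 2 were above the 95th percentile of the controls on the wild-type arrays and 0 on those labelled Lrat-/-. The mean of 5 fibroblast markers was 9.37 to 9.57 in deficient and 9.44 to 9.54 in sufficient arrays labelled Lrat-/-, against 9.68 to 9.70 in wild type. For 5 macrophage markers it was 8.78 to 8.82 in deficient and 8.68 to 8.85 in sufficient arrays of that label, against 8.85 to 9.18 in wild type. For 4 endothelial markers it was 10.12 to 10.13 in deficient and 9.91 to 10.04 in sufficient arrays of that label, against 10.12 to 10.21 in wild type. For 4 erythroid markers it was 10.64 to 11.23 in deficient and 10.51 to 10.79 in sufficient arrays of that label, against 10.05 to 10.75 in wild type. For 6 skeletal muscle markers it was 7.20 to 7.36 in deficient and 7.42 to 7.54 in sufficient arrays of that label, against 7.54 on all wild-type arrays. Among these, Acta1 differed from wild type by -1.21 in the deficient and -0.46 in the sufficient group (limma adjusted p = 0.407 and 0.944). Of the 6, 5 were lower than wild type in the deficient group and 3 in the sufficient group. For 5 atrial markers the mean was 7.01 to 7.45 in deficient and 7.11 to 7.49 in sufficient arrays of that label, against 7.16 to 7.33 in wild type. Among these, Nppa differed from wild type by -1.34 in the deficient and -0.09 in the sufficient group (limma adjusted p = 0.489 and 0.987). Nppa was the 1 atrial marker below wild type in each group, and the other 4 had positive differences in both. Acta1 and Nppa were named after their values were seen. The 6 epithelial, 6 adipocyte and 4 lung markers were above the 95th percentile of the controls on 0 of 9 arrays. The part of these cell types in the Gdpd3 values was not tested.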

How the data were processed

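RNA from the right ventricle was hybridised to 1 Affymetrix WT array per sample. Per the submitters' processing notes, which name RMA, R 3.1.2 and build mm8, the authors deposited log2 RMA signals for 35556 probe sets. A second deposited table gave symbols and accessions, and its 9 value columns match no sample and were not used. The third holds the authors' deposited ratios between groups. Per the file headers their model had a scan date term, but which arrays shared a date is not given in the sources used here.

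Symbols were updated through RefSeq (GRCm38.p6): 22111 probe sets matched by accession, 1818 by symbol, 625 by synonym, and 911 kept the file's name. The highest-mean probe set of each of 22061 genes entered limma 3.58.1 in R 4.3.3 (group means, default eBayes, residual degrees of freedom 6, Benjamini-Hochberg over all genes, called under 0.05), which was tested on simulated data. The files mark 5222 negative controls of 1 kind, and these were used in place of the planned antigenomic controls. After removal of group means, same-numbered arrays of different groups correlated at 0.138 to 0.391 and differently numbered ones at -0.365 to 0.223. The 2 ranges overlap, and no label says what the numbers share. The main fit, which gave the p-values and intervals above, leaves the numbers out. A fit with the number as a block is among the other settings. Members and lists were chosen with earlier results of these data known. Genes were named by rule: members, 5 fixed relatives, the 3 lowest p of the list per comparison, the nearest neighbours with the 3 of lowest p between sufficient Lrat-/- and wild type, and the extremes of likeness. Other settings were leaving out each array, blocks, array weights, variance models, 2-group fits, a dim-gene filter and probe set means. Figures used matplotlib 3.10.9.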

Additional observations from a re-analysis of the deposited data

How the results depend on the processing

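The Gdpd3 difference from wild type stayed negative under all 17 other settings, from -5.10 to -4.76 in the sufficient and from -5.11 to -4.72 in the deficient group, with -5.11 for the deficient group on the arrays numbered 1 and 2 only. Gdpd3 between the diets ran from -0.03 to 0.15 and changed sign under 4 settings. Neither this difference nor that of any other member was called under any setting, nor was any of the 52 listed genes. The Gde1 differences stayed negative throughout, while those of Gdpd1, Gdpd2 and Gdpd5 changed sign under 1 to 3 settings in each comparison and that of Gdpd4 between sufficient Lrat-/- and wild type under 5 of 16. The lowest adjusted p of Gde1 between deficient Lrat-/- and wild type was 0.204, with array weights. When the replicate number entered as a block, the differences of Gdpd3 were -4.85 and -4.88 as before, and limma called 20, 0 and 10 genes between deficient Lrat-/- and wild type, between the diets and between sufficient Lrat-/- and wild type, against 15, 0 and 8 without the block, and no call of a member or listed gene changed. The count of called genes between deficient Lrat-/- and wild type ran from 7 to 32 when 1 array was left out, with 7 without deficient array 1 or 2 and 32 without wild-type array 3. Between sufficient Lrat-/- and wild type it ran from 7 to 27, with 27 without wild-type array 1 and 17 without wild-type array 3. In fits with fewer samples, the counts were 3 and 2 on the arrays numbered 1 and 2 only and 9 and 2 with only the 2 groups compared. With array weights the counts were 32 between deficient Lrat-/- and wild type and 2 between the diets, and the cause was not tested. Gdpd4 gave no value with dim genes left out. Intronic controls as an alternative background were not run, because the files mark negative controls of 1 kind. Signals at the control level limit what can be measured for Gdpd2, Gdpd4 and, in arrays labelled Lrat-/-, Gdpd3. Signals under the 95th percentile of the controls also limit Lrat, Faah, Elovl7 and most of the receptors. The same holds for the mesothelial markers in arrays labelled Lrat-/- and for most of these markers in wild type. It holds too for Plekha7, Hal and Fbxo44 on every array labelled Lrat-/-. Plekha7 and Fbxo44 were also under that percentile on wild-type arrays 1 and 3, and Hal on wild-type array 1. Lgr6 carries the limit on the wild-type arrays.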
